A study of Mus musculus with 9 samples.

Results

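Marker genes of blood and lymph vessels, 10 in all, were followed through RNA-seq read counts of the embryonic mouse intestine. They were chosen by symbol from the deposited count table, which lists 24016 identifiers, and all 10 members were found in it. Of these, 8 mark blood vessel endothelium or all endothelium (Pecam1, Cdh5, Cldn5, Esam, Tek, Tie1, Plvap and Emcn), and 2 are used as markers of lymph vessels (Lyve1 and Prox1). The tissue was wild type C57BL/6 intestine of embryonic day 14.5, and there were 3 libraries in each of 3 groups. The first group was whole intestine that had received cyclopamine, an inhibitor of the hedgehog signal transducer Smoothened. The second was mesenchyme and the third was epithelium, each separated from intestine that received no agent. By the series' design text the culture was on transwells and lasted 24 hours, but it does not say whether the layers were separated before or after that time. Untreated whole intestine was not analysed here, so in every comparison with treated intestine the drug and the mixture of layers in whole tissue cannot be told apart. Nothing in the labels says that libraries of a group came from separate animals or pools, so the p-values speak only for the variation among the libraries at hand, which may be technical.

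Blood vessels are lined by endothelium, which lies in the gut mesenchyme below the epithelium. PECAM1 and VE-cadherin (Cdh5) hold neighbouring endothelial cells together, TEK and TIE1 are receptor tyrosine kinases of the angiopoietin pathway, and lymph vessels arise when venous endothelial cells switch on PROX1. Several of these genes are not exclusive to vessels: LYVE1, a hyaluronan receptor, is also carried by some tissue macrophages, and PROX1 is made in some neurons, endocrine cells and hepatocytes.

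The libraries held between 9739394 and 26357115 counts. Mesenchyme 1 stood apart, with 59.1% of its counts on Rn45s, the ribosomal RNA precursor, against 0.112% to 1.19% in the other libraries. It held 3284702 counts without Rn45s, Lars2 and Mir6236, against 14122486 to 26302836 in the others, so low genes rest on few reads there. Levels are given as counts per 1000000 (CPM) on library sizes scaled by the trimmed mean of M values, and every member passed the filter on low counts that left 15699 genes to test. Differences are log2 values from edgeR's quasi-likelihood test over the 9 libraries, with the standard error (SE) and the p-value adjusted over all tested genes by the Benjamini-Hochberg method. A gene passed the test when that adjusted p was under 0.05.

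In separated mesenchyme the 8 blood vessel genes were far above separated epithelium, and the 2 lymph vessel genes were not. All 8 blood vessel genes rose, by log2 differences of 4.30 to 5.37, and their values did not overlap between the layers. Among all tested genes 35.1% were called higher in mesenchyme, 69.6% were called in either direction and 35.3% had higher values with no overlap. The median difference over the 8 genes was 4.83, against -0.04 over all tested genes. Fewer cells of a type and less RNA per cell cannot be told apart in such bulk samples.

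Among the junction and adhesion genes, Cdh5 had 209, 193 and 235 CPM in the 3 mesenchyme libraries, against 13.8, 3.58 and 1.34 CPM in epithelium. Its difference was 5.08 (SE 0.69, adjusted p = 0.000117, edgeR). Pecam1, an immunoglobulin-family adhesion molecule found also on platelets and leukocytes, had 96.7, 130 and 151 CPM in mesenchyme, against 9.41, 3.71 and 2.67 CPM in epithelium. Each mesenchyme library thus lay above each epithelium library for both genes, and epithelium 1 was the highest epithelium library. The difference for Pecam1 was 4.57 (SE 0.44, adjusted p = 1.23e-05). Cldn5, the main endothelial claudin of tight junctions, averaged 39.8 ± 11.8 CPM in mesenchyme and 1.53 ± 1.00 CPM in epithelium (SD, n = 3 each). Esam, an endothelial adhesion molecule of tight junctions, averaged 51.9 ± 8.64 CPM in mesenchyme and 1.65 ± 1.20 CPM in epithelium. Both passed the test, with differences of 4.70 for Cldn5 and 4.96 for Esam.

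The receptors showed the same layer difference at unlike levels. Tek, the receptor that binds the angiopoietins, had 10.3, 15.5 and 16.6 CPM in mesenchyme, against 0.777, 0.567 and 0.286 CPM in epithelium. Tie1, its partner receptor, had 78.9, 117 and 130 CPM in mesenchyme, against 6.71, 1.70 and 1.05 CPM in epithelium. The log2 differences were 4.70 for Tek (SE 0.37, adjusted p = 4.14e-06) and 5.09 for Tie1 (SE 0.59, adjusted p = 4.47e-05). Of 5 listed genes of the angiopoietin pathway 4 were tested, the ligands Angpt1 and Angpt2, the TIE1-binding Svep1 and the intracellular adaptor Dok2, and all 4 were higher in mesenchyme. Among surface proteins, Plvap, which builds the diaphragms of fenestrated endothelium, had 36.3, 41.1 and 22.2 CPM in mesenchyme, against 2.496, 1.40 and 1.10 CPM in epithelium. Emcn, a sialomucin of veins and capillaries, had 17.7, 43.0 and 30.8 CPM in mesenchyme, against 1.64, 0.392 and 0.143 CPM in epithelium. Emcn showed the widest layer difference of the 8 genes, 5.37 (SE 0.61, adjusted p = 3.80e-05), and Plvap the narrowest, 4.30 (SE 0.35, adjusted p = 4.98e-06). Within mesenchyme, library 1 was the lowest for 6 of the 8 blood vessel genes, whereas Plvap was lowest in library 3 and Cdh5 in library 2.

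**Figure D1:**
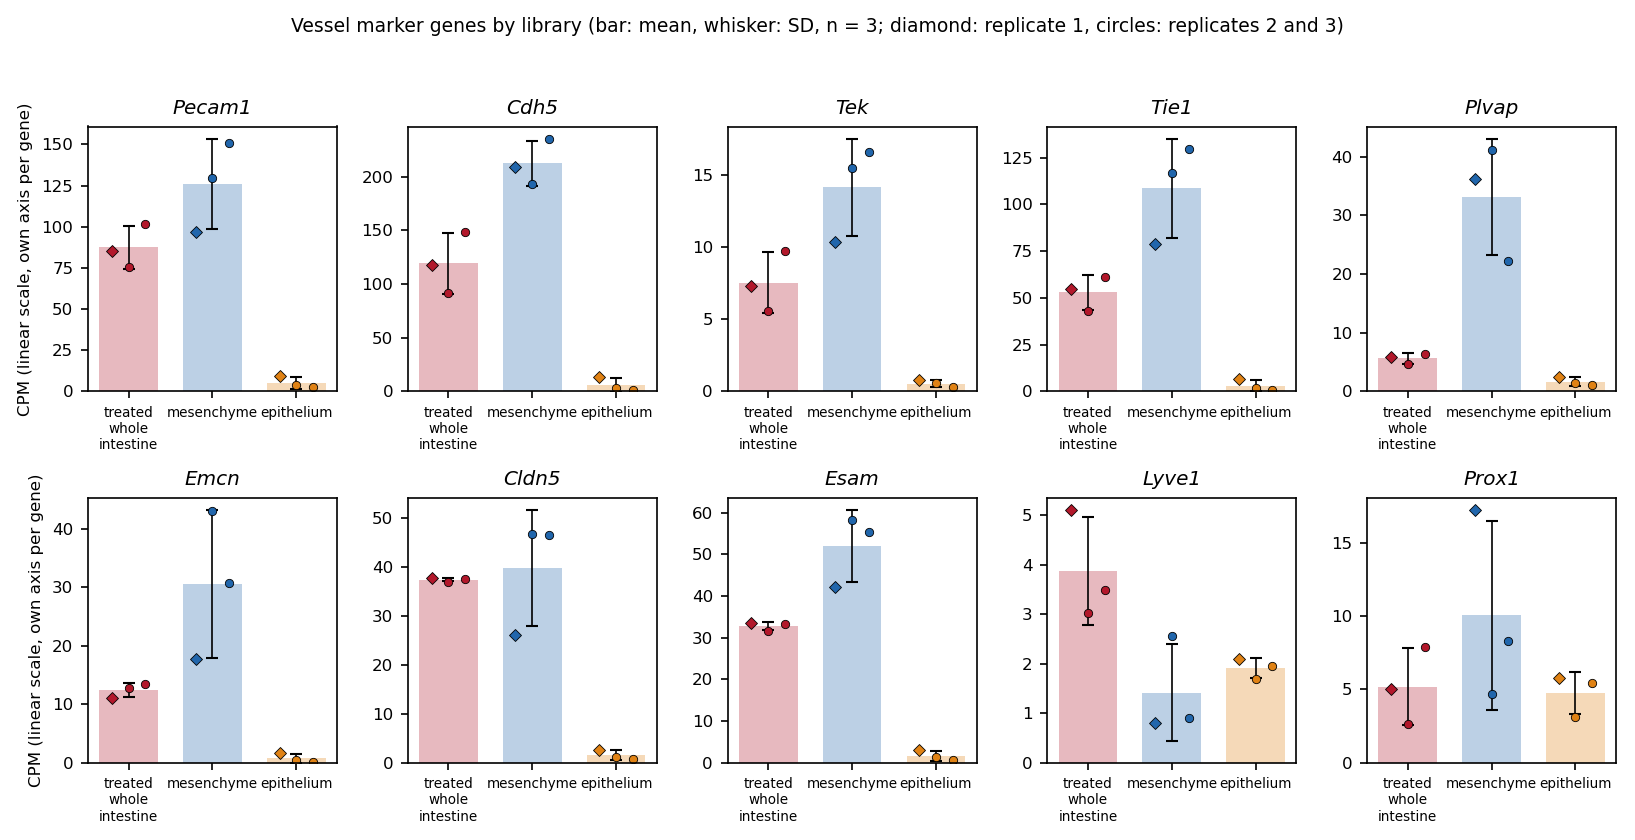
CPM of each of the 10 genes in the 9 libraries, on a linear scale with an axis of its own for each gene. Bars are means of 3 libraries, whiskers are SD, the diamond is replicate 1 and circles are replicates 2 and 3. The 8 blood vessel genes stand well above epithelium in mesenchyme, with Plvap at 4.65 to 6.39 CPM in treated intestine and 22.2 to 41.1 CPM in mesenchyme, while Lyve1 and Prox1 overlap between mesenchyme and epithelium.

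Because the 8 genes share this layer pattern, the sequence before their transcription starts is shown for 4 of them, a receptor pair, a sialomucin and a claudin. RefSeq entries on GRCm38.p6 matched 5 of the 10 members, with 6 windows that were cut here to the 250 bases upstream of the start. The authors' counts are on mm9, so these coordinates apply to the sequences only. Capitals mark ETS-type letters, AGGAAG or CCGGAA on either strand. Both contain GGAA, the core bound by endothelial ETS factors such as ERG and FLI1. Stretches of GGAA with other neighbouring letters were not counted and are not in capitals. The windows are Emcn at chr3:137340828-137341077 (plus strand), Tie1 at chr4:118489850-118490099 (minus strand), Tek at chr4:94739039-94739288 (plus strand) and Cldn5 at chr16:18776597-18776846 (plus strand), each printed 5′ to 3′ along its gene.
Emcn: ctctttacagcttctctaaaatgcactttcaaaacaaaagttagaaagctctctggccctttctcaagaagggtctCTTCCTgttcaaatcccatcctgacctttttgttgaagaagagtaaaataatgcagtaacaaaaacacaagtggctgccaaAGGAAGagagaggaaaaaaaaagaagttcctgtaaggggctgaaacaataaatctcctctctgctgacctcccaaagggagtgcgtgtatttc
Tie1: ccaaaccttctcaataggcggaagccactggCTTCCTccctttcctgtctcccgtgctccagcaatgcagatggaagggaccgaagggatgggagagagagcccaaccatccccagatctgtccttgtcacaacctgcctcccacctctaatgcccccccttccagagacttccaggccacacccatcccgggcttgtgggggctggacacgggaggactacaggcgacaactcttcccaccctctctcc
Tek: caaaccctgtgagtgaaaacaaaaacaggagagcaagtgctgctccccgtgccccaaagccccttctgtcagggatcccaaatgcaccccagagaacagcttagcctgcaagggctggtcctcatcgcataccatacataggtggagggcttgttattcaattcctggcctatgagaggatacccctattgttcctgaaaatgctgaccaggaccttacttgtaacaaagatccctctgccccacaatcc
Cldn5: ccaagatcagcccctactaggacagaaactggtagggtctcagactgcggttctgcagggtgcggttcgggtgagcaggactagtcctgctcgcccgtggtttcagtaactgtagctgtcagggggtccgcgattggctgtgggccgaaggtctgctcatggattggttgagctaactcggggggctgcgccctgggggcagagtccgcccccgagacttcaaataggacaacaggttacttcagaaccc
Emcn held 2 matches, starting 174 and 93 bases before the transcription start, and Tie1 held 1, starting 219 bases before it. Neither AGGAAG nor CCGGAA occurred in the windows of Tek, Cldn5 and Prox1, which does not mean that these windows lack GGAA. Of all 32851 promoter windows of this length 38.2% held at least 1 match, so 2 of 5 members is a description and no more. The SOX-type letters ACAAAG, on either strand, were found in Tek and Prox1 and in 16.5% of all windows. The GLI letters GACCACCCA, on either strand, were found in none of these members and in 0.225% of all windows.

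Per kilobase of transcript, which allows levels of different genes to be ranked, the order differed among groups. In treated intestine Cdh5 had 29.9, Pecam1 26.7 and Cldn5 26.4 CPM per kilobase, and neighbouring ranges in this leading group overlapped. In mesenchyme Cdh5 led with 53.1 CPM per kilobase, above the whole range of Pecam1 at 38.3. There Cldn5, Esam and Tie1 had mean levels of 28.1, 27.9 and 26.5 CPM per kilobase and overlapped in range. Plvap had 2.83 CPM per kilobase in treated intestine and 16.7 in mesenchyme, and Emcn had 4.81 in treated intestine and 11.8 in mesenchyme. Plvap thus lay above Emcn in mean level in mesenchyme, where their ranges overlapped, and below it without overlap in treated intestine. Tek was low in both, at 1.80 CPM per kilobase in treated intestine and 3.38 in mesenchyme. In epithelium the 10 genes lay between 0.130 CPM per kilobase for Tek and 1.603 for Pecam1, and each overlapped its neighbour in the order.

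Epithelium libraries still held some vessel transcripts, at a few percent of their mesenchyme level, as they held fibroblast transcripts. Relative to the mesenchyme mean, the 8 blood vessel genes stood at a median of 6.34% in epithelium 1, 2.73% in epithelium 2 and 1.601% in epithelium 3. The medians of 24 fibroblast genes were 7.92%, 2.495% and 1.23% in the same libraries. The medians of 29 other endothelial genes were 6.91%, 2.73% and 1.79%. Epithelium 1 was thus highest for all 3 lists. Single blood vessel genes ranged from 5.36% to 7.52% in epithelium 1 and from 0.469% to 3.31% in epithelium 3. Lyve1 stood far outside this range, at 147%, 120% and 138% of the mesenchyme mean, and Prox1 stood at 57.4%, 31.2% and 54.1%.

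**Figure D2:**
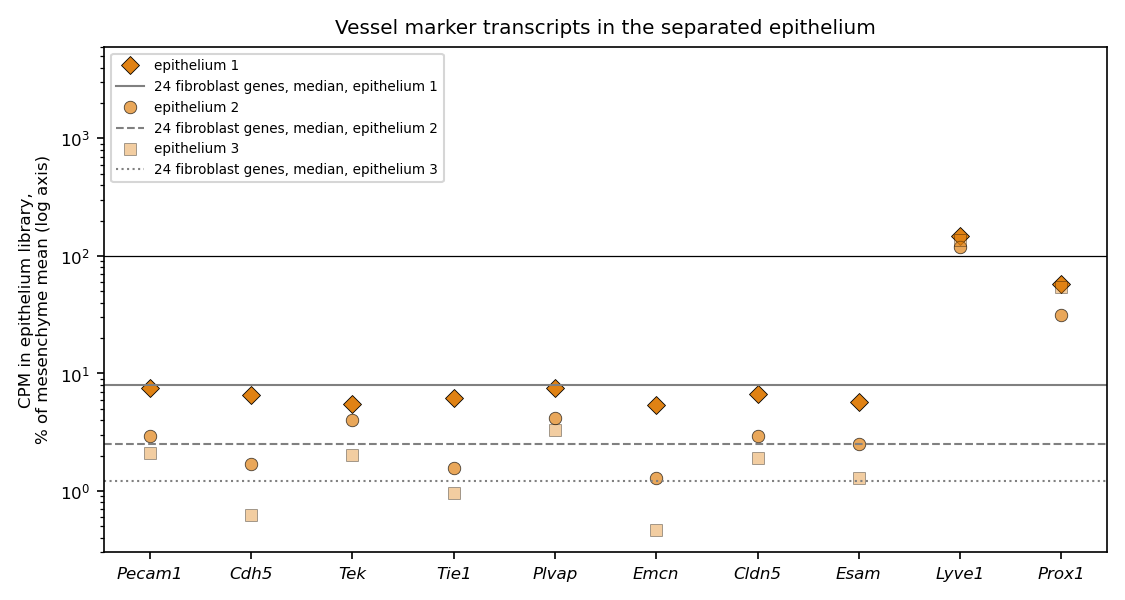
CPM in each epithelium library as a percent of the mesenchyme mean, on a log axis, for the 10 genes. Horizontal lines give the medians of 24 fibroblast genes in each epithelium library (7.92%, 2.495% and 1.23%) and the black line marks equality with mesenchyme. All 8 blood vessel genes lie below the fibroblast median in epithelium 1 (5.36% to 7.52%) and on both sides of it in epithelium 2 and 3, and Lyve1 and Prox1 lie far above the lines.

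The 2 lymph vessel genes were low in both layers. Lyve1 had 0.794, 2.56 and 0.905 CPM in mesenchyme, against 2.09, 1.70 and 1.96 CPM in epithelium, from raw counts of 3, 58 and 26 in mesenchyme and 51, 39 and 41 in epithelium. The layers overlapped, and the difference of -0.31 (SE 0.43, adjusted p = 0.533) did not pass the test. Prox1 had 17.2, 4.67 and 8.28 CPM in mesenchyme, against 5.77, 3.14 and 5.44 CPM in epithelium. Its difference of 0.97 (SE 0.51, adjusted p = 0.119) did not pass either, and mesenchyme 1 stood well above the other mesenchyme libraries. Without mesenchyme 2 both genes passed in opposite directions, Lyve1 at -1.12 (adjusted p = 0.0234) and Prox1 at 1.33 (adjusted p = 0.0370). Over 16 other settings the adjusted p ranged from 0.0234 to 0.941 for Lyve1 and from 0.0334 to 0.413 for Prox1.

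Other lymphatic genes did differ between the layers. All 9 listed genes passed as higher in mesenchyme, with a median difference of 4.08. Not all of them are exclusive to lymph vessels, so the list does not measure lymphatic endothelium alone. Mean levels in mesenchyme ran from 0.641 CPM for Foxc2 and 1.38 CPM for Ccl21a to 144 CPM for Itga9. Flt4, the VEGF-C receptor, had 58.3, 34.7 and 43.8 CPM in mesenchyme, against 2.33, 0.349 and 0.620 CPM in epithelium, a difference of 5.33. Pdpn, or podoplanin, found on lymph vessels and also on fibroblasts and mesothelium, averaged 49.7 ± 8.48 CPM in mesenchyme and 2.56 ± 1.26 CPM in epithelium, a difference of 4.27. Further lists cover cell types in which Lyve1 or Prox1 may be made. All 17 tested macrophage and leukocyte genes were higher in mesenchyme, with a summed level of 318 to 478 CPM in mesenchyme and 23.4 to 51.6 CPM in epithelium, and 1 of the 18 listed genes was at 0 in each layer. Of 12 enteroendocrine genes 7 were lower in mesenchyme and none was higher, with a summed level of 26.0 to 41.2 CPM in mesenchyme and 122 to 188 CPM in epithelium, and none was at 0 in either layer. All 12 enteric neural crest and neuron genes were called higher in mesenchyme. Their summed level was 1284 to 1541 CPM in mesenchyme and 45.7 to 112 CPM in epithelium. The part of these cell types in the values of Lyve1 and Prox1 was not tested.

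Treated intestine set against mesenchyme gave a mixed picture, with Plvap and Tek lower and Lyve1 higher. Of the 8 blood vessel genes 2 fell and 6 did not pass. Among all tested genes 20.5% were called lower, 20.8% higher and 41.2% in either direction. The share of the 8 genes that fell was thus close to that of all genes. The median over the 8 genes was -0.88, against -0.02 over all tested genes. All 5 listed hedgehog target genes fell, with a median of -4.94. Whole tissue also contains epithelium: all 24 epithelial genes were higher, with a summed level of 2519 to 2957 CPM in treated intestine and 231 to 273 CPM in mesenchyme. Of 24 fibroblast genes 9 fell and none rose, with a median of -0.90. The part of these changes in tissue makeup in the vessel values was not tested.

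Plvap showed the clearest difference. It had 5.84, 4.65 and 6.39 CPM in the treated libraries, against 36.3, 41.1 and 22.2 CPM in mesenchyme, and the groups were widely apart. The difference was -2.55 (SE 0.32, adjusted p = 0.000305), and Plvap passed as lower in all 16 other settings, with values from -2.78 to -2.34 and adjusted p from 8.10e-13 to 0.00363. Tek had 7.28, 5.57 and 9.75 CPM in treated intestine, against 10.3, 15.5 and 16.6 CPM in mesenchyme. Here the highest treated library lay just below the lowest mesenchyme library, and the difference was -0.93 (SE 0.30, adjusted p = 0.0309). That value was near the medians of the 29 other endothelial genes (-0.89) and of the 24 fibroblast genes (-0.90). The call for Tek was lost when any of 4 libraries was left out, treated 1 (adjusted p = 0.107), treated 2 (0.124), mesenchyme 2 (0.0700) or mesenchyme 3 (0.105), and the range over 16 other settings was 0.00638 to 0.124.

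A further 5 blood vessel genes had a negative difference between -0.53 and -1.32 without passing. Emcn had 11.05, 12.8 and 13.4 CPM in treated intestine, against 17.7, 43.0 and 30.8 CPM in mesenchyme, with a difference of -1.32 (SE 0.48, adjusted p = 0.0520). Tie1 averaged 53.0 ± 9.20 CPM in treated intestine and 108 ± 26.4 CPM in mesenchyme, a difference of -1.04 (SE 0.49, adjusted p = 0.118). Cdh5 averaged 119 ± 28.6 CPM in treated intestine and 212 ± 21.2 CPM in mesenchyme, a difference of -0.83 (SE 0.57, adjusted p = 0.270). These 3 genes and Esam, at 32.8 ± 0.990 CPM in treated intestine and 51.9 ± 8.64 CPM in mesenchyme, did not overlap between the groups. With Plvap and Tek that made 6 members lower without overlap and 1 higher, against 26.8% and 28% of all tested genes. Pecam1, at 87.6 ± 13 CPM in treated intestine and 126 ± 27.4 CPM in mesenchyme, overlapped between them.

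How many of these genes passed depended on which libraries were in the fit. The epithelium libraries enter the filter, the scaling and the estimate of spread although they are not part of the comparison. Which of these changed the calls was not tested. With the 6 treated and mesenchyme libraries alone, 6 blood vessel genes fell and Lyve1 rose, where 18.8% of 15224 tested genes were called lower and 20.5% higher. The 4 added genes were Cdh5 (-0.80, adjusted p = 0.0136), Tie1 (-0.999, adjusted p = 0.00711), Emcn (-1.28, adjusted p = 0.00896) and Esam (-0.63, adjusted p = 0.0114). The adjusted p over all 16 other settings reached 0.511 for Cdh5, 0.298 for Tie1, 0.168 for Emcn and 0.296 for Esam. Without epithelium 1 alone, 6 blood vessel genes again fell and Lyve1 rose, against 20.1% of tested genes lower and 21.4% higher. Without treated 1, or without mesenchyme 3, 1 member passed, Plvap. The authors' deposited table called 5 members lower in treated intestine than in mesenchyme, namely Cdh5, Tek, Tie1, Plvap and Esam, and none higher.

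Cldn5 had close mean levels in treated intestine and mesenchyme. It had 37.7, 37.0 and 37.6 CPM in treated intestine, against 26.2, 46.8 and 46.5 CPM in mesenchyme. The treated libraries lay inside the mesenchyme range, and the difference was -0.11 (SE 0.33, adjusted p = 0.812). It changed sign to 0.01 when mesenchyme 2 or mesenchyme 3 was left out. Plvap and Cldn5 thus stood at the ends of the range of the 8 genes, although the difference between them was not tested.

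**Figure D3:**
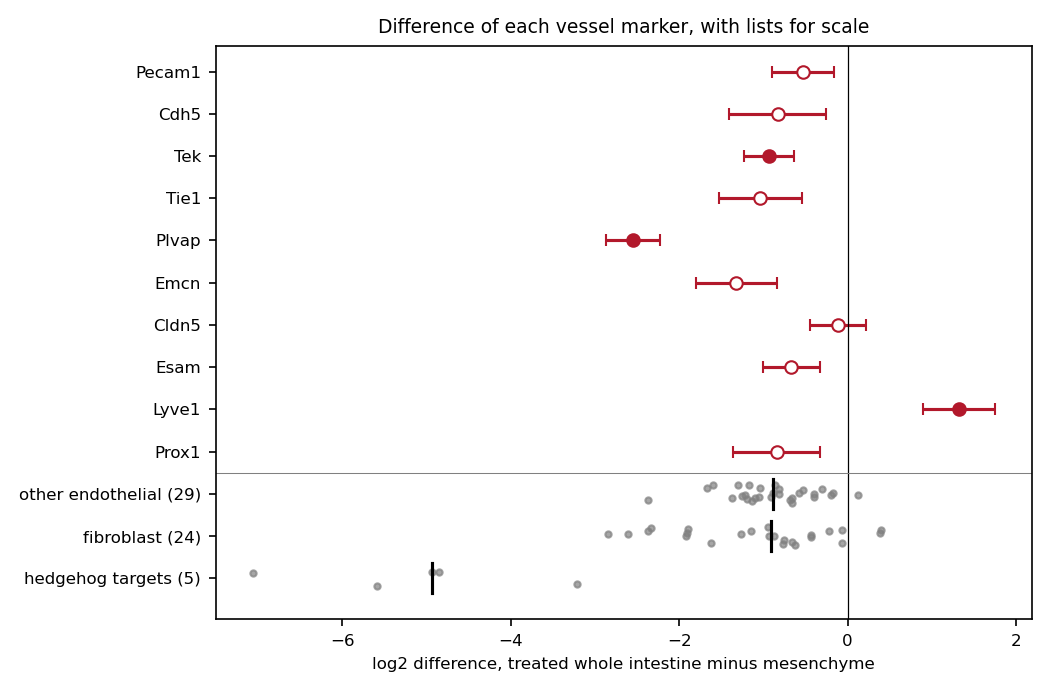
Log2 difference of treated intestine minus mesenchyme for the members and for the genes of other fixed lists, from the edgeR fit over 9 libraries. For the members, whiskers are SE, filled points have an adjusted p under 0.05 and open points do not. Grey points are single genes of the lists and black bars mark list medians. Plvap lies at -2.55 below the other blood vessel genes, Lyve1 lies at 1.33, and the medians of the blood vessel members (-0.88) and of 29 other endothelial genes (-0.89) are close.

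Lyve1 was the one member that rose. It had 5.10, 3.02 and 3.50 CPM in treated intestine, against 0.794, 2.56 and 0.905 CPM in mesenchyme, from raw counts of 96, 52 and 76 in treated intestine and 3, 58 and 26 in mesenchyme. All treated libraries lay above all mesenchyme libraries, although treated 2 was close to mesenchyme 2. The difference was 1.33 (SE 0.42, adjusted p = 0.0319). That call was lost without treated 1 (adjusted p = 0.107), treated 3 (0.0550), mesenchyme 1 (0.0539) or mesenchyme 3 (0.109), with a range of 0.00282 to 0.109 over 16 other settings. The authors' deposited table gave Lyve1 a log2 fold of 1.42 with an adjusted p of 0.0832. Macrophage and leukocyte genes summed to 273 to 285 CPM in treated intestine and 318 to 478 CPM in mesenchyme. Of 17 tested, 5 were lower and 1 higher, against 20.5% and 20.8% of all tested genes. The gene that rose was Mrc1, a mannose receptor, at 20.4, 18.1 and 22.4 CPM in treated intestine, against 9.27, 8.60 and 10.7 CPM in mesenchyme, a difference of 1.09 (adjusted p = 0.00200). With the 6 libraries alone Emr1 and Lyz2 also rose, which made 3 higher and 5 lower. Those lower in that fit were Csf1r, Ptprc, Laptm5, Fcer1g and Timd4. Csf1r had 29.2, 24.7 and 28.6 CPM in treated intestine, against 71.0, 94.9 and 86.7 CPM in mesenchyme. Its difference with the 6 libraries alone was -1.58 (adjusted p = 0.000291, edgeR). The part of macrophages in the Lyve1 value was not tested.

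Prox1 was not called in this comparison. It had 5.05, 2.61 and 7.87 CPM in treated intestine, against 17.2, 4.67 and 8.28 CPM in mesenchyme, and the groups overlapped. Its difference was -0.84 (SE 0.51, adjusted p = 0.214). Of the 9 other lymphatic genes 2 fell and none rose, a share close to the 20.5% of all tested genes called lower, and with the 6 libraries of the 2 groups alone 3 fell and 1 rose. Flt4 had 15.8, 12.9 and 16.3 CPM in treated intestine, against 58.3, 34.7 and 43.8 CPM in mesenchyme, a difference of -1.59 (adjusted p = 0.0170). Pdpn averaged 20.9 ± 1.19 CPM in treated intestine and 49.7 ± 8.48 CPM in mesenchyme, a difference of -1.26 (adjusted p = 0.00499). Sema3d, a secreted semaphorin, had 26.5, 16.8 and 31.9 CPM in treated intestine, against 14.3, 8.82 and 13.4 CPM in mesenchyme. Its groups did not overlap, and its difference of 1.07 (adjusted p = 0.0635) did not pass over the 9 libraries but did with the 6 libraries alone (1.11, adjusted p = 0.0190).

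Scaled to other endothelial transcripts, Plvap and Lyve1 passed the test between treated intestine and mesenchyme. For that comparison the summed counts of 29 other endothelial genes took the place of the library size, and each member was read as reads per 1000 endothelial reads. All genes shift on this scale, with a median of 0.93, so values are read against that shift or among endothelial genes. Plvap remained lower and Lyve1 remained higher, and the other 8 members did not pass. The background was 1.71% of tested genes lower and 42.5% higher.

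Plvap had 6.21, 5.68 and 6.28 reads per 1000 endothelial reads in treated intestine, against 18.5, 25.3 and 12.4 in mesenchyme. The groups did not overlap, and the difference was -1.62 (SE 0.45, adjusted p = 0.00186). It passed in all 14 other settings, from -1.85 to -1.34, with adjusted p between 0.000613 and 0.0279. Lyve1 had 5.42, 3.69 and 3.43 reads per 1000 endothelial reads in treated intestine, against 0.404, 1.57 and 0.504 in mesenchyme. Its difference of 2.23 (SE 0.54, adjusted p = 0.000306) also passed in all 14 other settings, with adjusted p between 0.000117 and 0.0172. The Lyve1 value includes the upward shift of all genes on this scale, with its median of 0.93. On the CPM scale its call was lost when some single libraries were left out, with adjusted p up to 0.109 (edgeR). The settings on the endothelial scale therefore do not make the rise of Lyve1 firmer.

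Cldn5 had 40.1, 45.3 and 36.9 reads per 1000 endothelial reads in treated intestine, against 13.3, 28.8 and 25.9 in mesenchyme. The groups did not overlap, but the difference of 0.84 (SE 0.44, adjusted p = 0.106) did not pass, and it did pass with the 6 libraries of the 2 groups alone (0.83, adjusted p = 0.0262), where 64.3% of tested genes were called higher. Its range over 14 other settings was 0.0232 to 0.374. Pecam1 had 90.7, 92.7 and 99.7 reads per 1000 endothelial reads in treated intestine, against 49.2, 79.7 and 84.3 in mesenchyme, with a difference of 0.41 (SE 0.44, adjusted p = 0.446). With Lyve1 these made 3 members higher without overlap and Plvap was the 1 lower, against 69.5% and 3.73% of all tested genes. Tek (-0.01), Tie1 (-0.11) and Cdh5 (0.10) lay near 0 on this scale, and their signs turned when single libraries were left out.

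**Figure D4:**
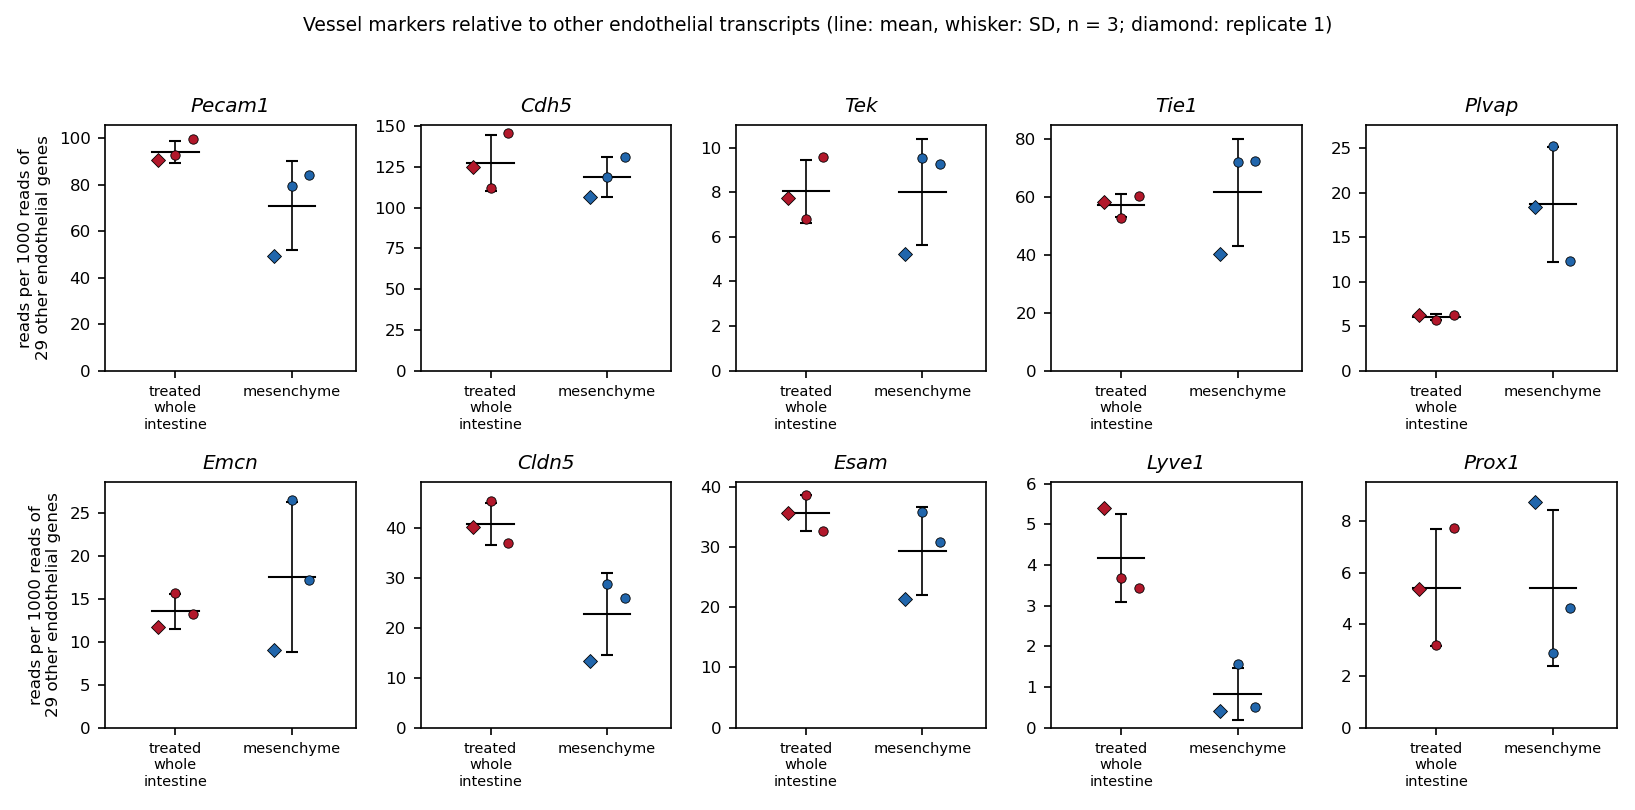
Reads of each member per 1000 reads of 29 other endothelial genes in the treated and mesenchyme libraries, on a linear scale with an axis of its own for each gene. Horizontal lines are means of 3 libraries, whiskers are SD and points are libraries. Plvap is lower in treated intestine (5.68 to 6.28) than in mesenchyme (12.4 to 25.3), while Lyve1, Cldn5 and Pecam1 are higher without overlap. On this scale 69.5% of all tested genes are higher and 3.73% lower without overlap. Cldn5 and Pecam1 did not pass the test.

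Treated levels were also set beside a computed mixture of the 2 separated layers, as a description without a test. From 24 epithelial genes the epithelial share of the treated libraries came to 43.7%, 44.7% and 36.2%. Observed over expected levels had a median of 0.91 over the 8 blood vessel genes, 0.88 over the 29 other endothelial genes, 0.88 over the fibroblast genes and 0.0545 over the hedgehog targets. Plvap stood lowest of the members, at 0.279 ± 0.0314 of the expected level, and Emcn at 0.686 ± 0.0576 (SD, n = 3 treated libraries). Cldn5 stood at 1.57 ± 0.106 and Pecam1 at 1.15 ± 0.0921. Lyve1 stood highest, at 2.38 ± 0.661, and Prox1 varied most among treated libraries in relative terms, at 0.652 ± 0.313.

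Against separated epithelium, all 8 blood vessel genes were higher in treated intestine, where 32.1% of tested genes were called higher and 29.8% lower. These comparisons share libraries with those above. The differences ran from 1.75 for Plvap (SE 0.34, adjusted p = 0.00151) to 4.59 for Cldn5, with a median of 4.05. Plvap had 5.84, 4.65 and 6.39 CPM in treated intestine, against 2.496, 1.40 and 1.10 CPM in epithelium, and the groups did not overlap. Lyve1 had 5.10, 3.02 and 3.50 CPM in treated intestine, against 2.09, 1.70 and 1.96 CPM in epithelium, a difference of 1.01 (SE 0.40, adjusted p = 0.0505). Of 16 other settings 7 left Lyve1 on the same side of the threshold, and its adjusted p ranged from 0.00757 to 0.152. Prox1 averaged 5.17 ± 2.63 CPM in treated intestine and 4.78 ± 1.43 CPM in epithelium, a difference of 0.12 (SE 0.50, adjusted p = 0.849). In all, 9 members lay above epithelium without overlap and Prox1 overlapped, against 38.2% of tested genes that did so.

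Other genes of the vessel wall give the setting for these values in the comparison of treated intestine with mesenchyme. Of 29 other endothelial genes 11 fell and none rose, where 20.5% of all tested genes were called lower. With the 6 libraries of the 2 groups alone 20 fell, where 18.8% of tested genes were called lower. Eng, the endothelial TGF-beta co-receptor endoglin, had 25.9, 24.97 and 24.4 CPM in treated intestine, against 171, 110 and 109 CPM in mesenchyme. Its difference of -2.37 (adjusted p = 0.00181) was the largest fall in that list, followed by Robo4 (-1.67), the VEGF receptor Flt1 (-1.60) and Ramp2 (-1.37). Relative to the other endothelial genes Eng was the one list member that fell (-1.39, adjusted p = 0.00822) and Clec14a the one that rose (1.06, adjusted p = 0.0430). Both calls were lost with median-of-ratios scaling, and 7 of the 29 genes were called with the 6 libraries alone. Both genes are themselves part of the endothelial sum.

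In the angiopoietin pathway 2 of 4 tested genes fell, few genes to set beside the 20.5% of all tested genes called lower. Angpt2, which modulates TEK signalling, had 5.58, 3.89 and 5.70 CPM in treated intestine, against 13.8, 25.6 and 16.8 CPM in mesenchyme, a difference of -1.91 (adjusted p = 0.00548). Svep1, an extracellular matrix protein that binds TIE1, fell by 1.71 on the log2 scale (adjusted p = 0.0232). Angpt1, the activating ligand of TEK, had 23.2, 24.9 and 26.1 CPM in treated intestine, against 24.1, 16.6 and 36.5 CPM in mesenchyme, and the groups overlapped. Of 13 tested endothelial transcription factors 1 fell, Elk3, and none rose. With the 6 libraries of the 2 groups alone 5 of the 13 fell and none rose, where 18.8% of tested genes were called lower.

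Counts in the smaller vessel lists are read against the 20.8% of all tested genes called higher, 20.5% called lower and 41.2% called in either direction. Of 11 tested arterial genes 4 fell (Notch4, Unc5b, Dll4 and Cxcr4) and 1 rose, Gja5, a connexin of arterial endothelium, so that the share called was close to that of all genes. Gja5 had 15.0, 12.5 and 30.4 CPM in treated intestine, against 5.83, 1.98 and 8.94 CPM in mesenchyme, a difference of 1.79 (adjusted p = 0.0427). Of 5 venous genes 2 fell, Aplnr (-1.90), the apelin receptor, and Nr2f2 (-1.30), a regulator of venous identity that mesenchymal cells also make. Nr2f2 had 45.3, 57.5 and 53.1 CPM in treated intestine, against 172, 109 and 104 CPM in mesenchyme. Of 4 tested capillary and tip cell genes Apln fell (-1.34) and Kcne3 rose (0.78). Kcne3 averaged 33.6 ± 6.80 CPM in treated intestine, 19.8 ± 1.94 CPM in mesenchyme and 102 ± 7.32 CPM in epithelium, so it was highest in the epithelium that whole tissue contains. Of 9 tested pericyte and mural genes 4 fell, Cspg4 (-2.5), Pdgfrb (-2.04), Notch3 (-1.68) and Ndufa4l2 (-1.27), and Anpep, which intestinal epithelium also makes, rose (1.94). Mesenchyme 1 was the highest mesenchyme library for Cspg4 (363, 108 and 145 CPM) and Notch3 (256, 91.7 and 185 CPM). With the 6 libraries of the 2 groups alone 6 of the 9 fell and 1 rose, against 18.8% and 20.5% of tested genes. Of 8 tested erythroid genes, which mark red blood cells, 4 rose and 1 fell. Their summed level was 157 to 253 CPM in treated intestine and 42.6 to 78.7 CPM in mesenchyme. Most of it was the globin Hbb-y, at 174 ± 44.0 CPM in treated intestine and 40.0 ± 15.1 CPM in mesenchyme. Bulk counts do not show whether these cells lay inside vessels.

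Genes with the closest pattern over the 9 libraries were ranked by Pearson's r of log2(CPM + 0.5), as a description, since libraries fall into 3 groups that set most of the correlation. For the mean of the 8 blood vessel genes the first 12 were Dzip1 (r = 0.999), Cd34 (0.998), Sardh, Fermt2, Gnb4, Robo2, Rftn2, Rhoj, Fndc3c1, Lix1l, Jam3 and Cdh11 (0.997). Of these, 2 were in the endothelial list, Cd34 and Rhoj. For Lyve1 the first 6 were Noxa1 (0.952), Gm15706, Pms1, Scand1, Zfp947 and Bco2 (0.909), and for Prox1 they were Klhl15 (0.971), Adcy9, 9930021J03Rik, Ice1, C1rb and Zbtb20 (0.940). None of these 12 was in a vessel list.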

How the data were processed

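RNA was sequenced from 3 libraries each of cyclopamine-treated whole intestine, mesenchyme and epithelium. Reads were aligned with TopHat2 2.0.13 to mm9 and DESeq was used, per the submitters' processing notes. Which program counted the reads, on which strand and with which annotation is not stated in the labels or headers, so overlapping and antisense genes cannot be told apart. The authors deposited whole read counts for 24016 identifiers, group means (a signal of counts over size factors), the ratio or fold of those means, and p-values with adjusted p-values, per the file headers.

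From the deposited counts, edgeR 4.0.16 in R 4.3.3 was run over 9 libraries: filterByExpr with a minimum count of 10, TMM, quasi-likelihood F test, two-sided, Benjamini-Hochberg adjustment over 15699 genes, threshold 0.05. The SE is the log2 difference over the square root of F. A second fit used the log of the summed counts of 29 endothelial genes as offset. Alternatives were DESeq2 1.42.0, median-of-ratios scaling, no filter, at least 1 CPM in 3 libraries, only the 2 groups compared, a replicate block, leaving out Rn45s, Lars2 and Mir6236, and leaving out each library. Named genes were the 10 members, up to 4 passing genes per list with the largest differences, and the 12 or 6 genes of closest pattern. Angpt1, Dok2, Sema3d, Emr1, Lyz2 and the named macrophage and leukocyte genes that fell, and single values chosen for contrast, were added after their values were seen. The members and lists were chosen with earlier results of these data known. Transcript lengths came from GENCODE M21 and promoters from RefSeq. Spreadsheet software had turned 27 symbols into dates, and all 27 were named through RefSeq accessions. Scripts were tested on simulated data. Replicates differed beyond sampling noise (chi-square per degree of freedom 9.40 to 1368), so none was merged.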

Additional observations from a re-analysis of the deposited data

How the results depend on the processing

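The number of members called between treated intestine and mesenchyme, 3 over all 9 libraries, was 7 with only the 2 groups compared and ranged from 1 to 7 when single libraries were left out (1 without treated 1 or mesenchyme 3, 7 without epithelium 1). A mesenchymal share taken from the fibroblast genes gave a median observed over expected level of 1.05, against 0.91. Relative to other endothelial genes, Prox1 turned to -0.045 with median-of-ratios scaling and Tek to 0.047 with the replicate block. Leaving out single libraries turned the sign of differences that had not passed. Lyve1 in mesenchyme against epithelium ranged from -1.12 to 0.040, Cldn5 in treated intestine against mesenchyme from -0.29 to 0.013, and Prox1 in treated intestine against epithelium from -0.22 to 0.51. Relative to other endothelial genes the ranges were -0.0038 to 0.19 for Cdh5, -0.22 to 0.13 for Tek, -0.34 to 0.021 for Tie1, -0.69 to 0.032 for Emcn and -0.30 to 0.54 for Prox1. The 11 calls among other endothelial genes in treated intestine against mesenchyme were 20 with only the 2 groups compared and 3 to 19 without single libraries. On the endothelial scale, 6933 of all genes were called, against 3713 with median-of-ratios scaling and 3795 to 10675 without single libraries. The causes were not tested. With the replicate number as a block, 9 members were called in mesenchyme against epithelium (Prox1 added, 0.93, adjusted p = 0.0334, edgeR), 3 in treated intestine against mesenchyme, 8 against epithelium and 2 relative to other endothelial genes. Same-numbered libraries did not deviate together in every pair (correlations -0.20 to 0.30). Such correlations cannot show whether same-numbered libraries came from the same tissue, and the labels do not say. Of 620 member results under other settings 568 kept their direction and side of the threshold, 26 newly passed, 8 no longer passed and 18 changed sign. The few reads of mesenchyme 1 limit Lyve1, with 3 counts there.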
